A study of Homo sapiens with 6 samples.

Results

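NEURL1B and 9 further genes of the Notch pathway were examined in DLD1, a cell line established from a human colorectal adenocarcinoma. The cells carried a lentivirus that encodes either a short hairpin RNA to knock down CDKL1, a kinase gene (CDKL1 shRNA), or a control hairpin (control shRNA). The members were named genes: the Notch ligand ubiquitin ligase genes NEURL1B, NEURL1 and MIB1, the ligand genes DLL1, JAG1 and JAG2, the receptor genes NOTCH1, NOTCH2 and NOTCH3, and the target gene HES1. All 10 were measured, out of 18132 genes on the arrays, through 35 probe sets of 49293. NEURL1B was chosen by its log2 difference between these same arrays, and the other members were listed with results of the same comparison known. Their values are therefore given as a description, with no p. Both groups were the same line in the same medium, with 3 samples of CDKL1 shRNA cells and 3 of control shRNA cells, 1 Affymetrix array each. The labels give neither the hairpin sequences nor the time after infection, and a single CDKL1 hairpin group was available, so an effect of the hairpin itself cannot be told apart from an effect of CDKL1.

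Notch signalling passes between touching cells. A ligand on one cell, of the Delta-like (DLL) or Jagged (JAG) family, binds a Notch receptor on its neighbour; the ligand cell must take the ligand up by endocytosis, which Mind bomb (MIB) and Neuralized (NEURL) ubiquitin ligases trigger by ubiquitinating the ligand's tail. The pull on the receptor lets ADAM proteases and then gamma-secretase cut it, and the freed intracellular part enters the nucleus, joins the DNA-binding protein RBPJ and a Mastermind (MAML) co-activator, and switches on repressor genes such as HES1. In the intestinal epithelium this signal keeps progenitor cells dividing and holds them back from the secretory fate, and it is often active in colorectal cancer.

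The promoter windows of NEURL1B, JAG1 and HES1, the members called lower after CDKL1 shRNA, are shown so that the genes can be seen at their start sites. Each holds 250 bases before and 50 after the gene's start, in RefSeq's GRCh38.p14, and capitals mark TGGGAA, the core letters of the sequence that RBPJ binds. The NEURL1B window is chr5:172641013-172641312 on the plus strand, that of JAG1 is chr20:10673950-10674249 on the minus strand, and that of HES1 is chr3:194135898-194136197 on the plus strand.
NEURL1B: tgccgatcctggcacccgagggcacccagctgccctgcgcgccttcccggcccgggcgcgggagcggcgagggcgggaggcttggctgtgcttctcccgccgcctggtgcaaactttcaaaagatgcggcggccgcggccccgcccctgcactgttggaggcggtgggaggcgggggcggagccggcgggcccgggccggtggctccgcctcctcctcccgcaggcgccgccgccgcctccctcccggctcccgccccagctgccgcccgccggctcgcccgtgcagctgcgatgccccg
JAG1: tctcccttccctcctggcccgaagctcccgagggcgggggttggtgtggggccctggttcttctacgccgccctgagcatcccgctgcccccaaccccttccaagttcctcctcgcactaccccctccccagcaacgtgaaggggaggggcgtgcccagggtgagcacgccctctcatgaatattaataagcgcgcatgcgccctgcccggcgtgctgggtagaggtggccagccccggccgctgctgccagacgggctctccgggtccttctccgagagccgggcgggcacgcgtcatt
HES1: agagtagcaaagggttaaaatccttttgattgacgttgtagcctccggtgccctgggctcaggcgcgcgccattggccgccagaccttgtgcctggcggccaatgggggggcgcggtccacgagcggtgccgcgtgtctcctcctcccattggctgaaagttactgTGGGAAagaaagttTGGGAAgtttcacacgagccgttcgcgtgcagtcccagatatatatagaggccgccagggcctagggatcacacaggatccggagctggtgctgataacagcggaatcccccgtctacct
The HES1 window holds TGGGAA 2 times, at bases -84 and -70 from the start of the gene, and the first of them lies within GTGGGAA. The windows of NEURL1B and JAG1 have no TGGGAA on either strand. Of 27305 promoter windows of this length, 24.4% held TGGGAA on either strand and 3.84% held it at least 2 times, while 6.23% held GTGGGAA. Of the 9 members with a window in the table, HES1 and NEURL1 had a match. CACNAG, the N-box letters bound by HES1 itself, was found 4 times in the HES1 window, 1 time in that of NEURL1B and not in that of JAG1. It was also in the windows of NOTCH1, NOTCH2 and NOTCH3, so 5 of the 9 member windows held it. Of all windows 38.3% held it at least 1 time on either strand, and 8.92% at least 2 times. The NEURL1B window was 79.3% G and C, at percentile 97.0 of all windows, against 68.7% for JAG1 and 59.0% for HES1.

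NEURL1B was far lower in CDKL1 shRNA cells, and of the other members only JAG1, HES1 and NOTCH1 passed the same threshold, with much smaller differences. In a limma fit across all genes, with p adjusted over all of them by the Benjamini-Hochberg method and a threshold of 0.05, 3 of the 10 members were called lower and 1 higher, and 6 were not called. In the same fit 16.8% of all genes were called, 8.97% higher and 7.79% lower; because the members were chosen with this comparison in view, nothing is read from the members' count against that share. The arrays of the groups did not overlap for the same 4 members, against 35.7% of all genes. The median log2 difference of the members was -0.02, and that of all genes was -0.01. In each of the 6 fits that left out 1 array, NEURL1B and JAG1 were called lower and HES1 and NOTCH1 were not called.

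**Figure D1:**
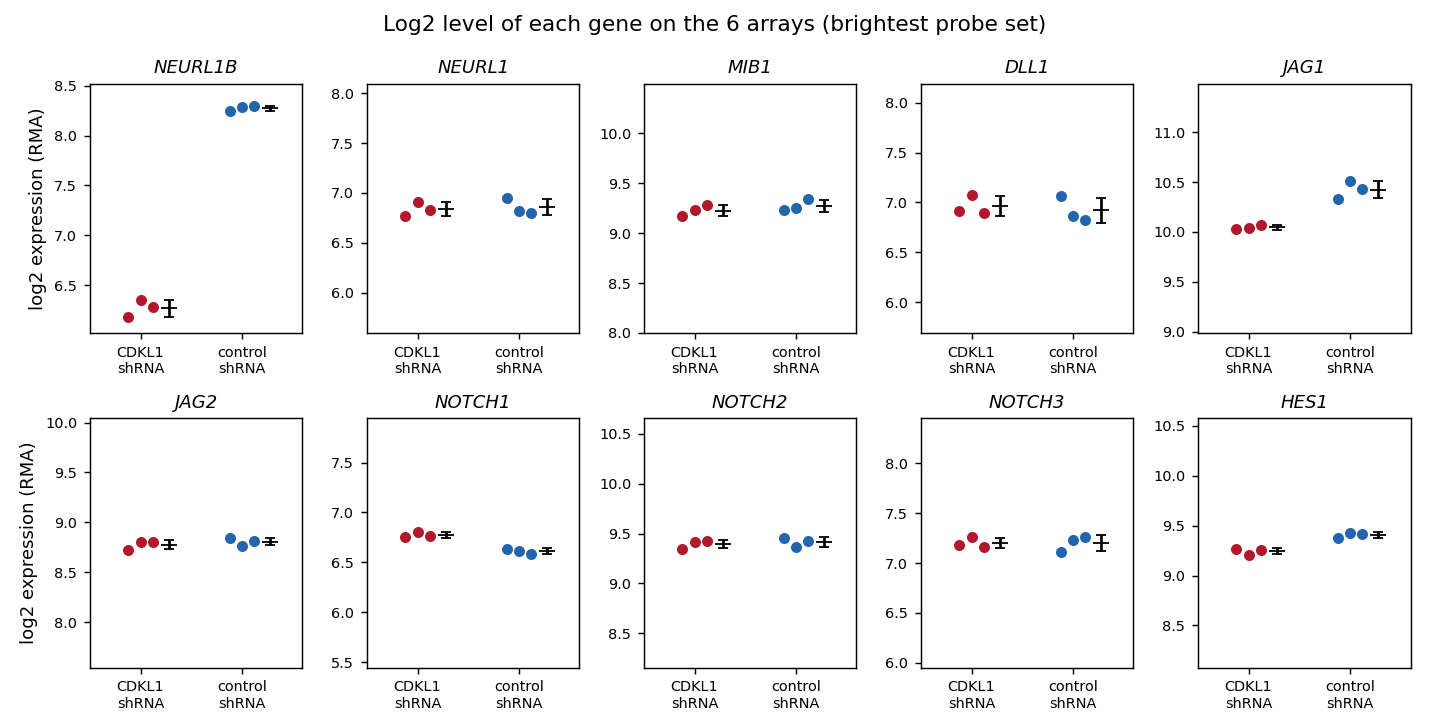
Log2 expression (RMA) of the 10 genes on each array, from the brightest probe set; points are arrays, CDKL1 shRNA left and control shRNA right, and bars show mean ± SD of 3 arrays. Every panel spans the same height on the log2 axis, so the gap of 2.0 for NEURL1B can be set against those of the other genes.

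The targeted gene gives little check of the labels. CDKL1 had log2 levels of 4.25, 4.20 and 4.08 on CDKL1 shRNA arrays, against 4.51, 4.42 and 4.17 on control shRNA arrays, and the groups overlapped. Its difference of -0.19 did not pass (limma, adjusted p = 0.219; exact two-sided permutation p = 0.3, where 3 arrays against 3 allow no p below 0.1), at a level inside the range of 2.97 to 4.92 that background controls spanned when they held 10 to 16 bases of G or C. It passed without control shRNA replicate 3, at -0.29 (limma, adjusted p = 0.0489). Array medians lay between 6.64 and 6.7. The 3' minus 5' difference of the ACTB control probe sets, a sign of RNA quality, was 1.6 ± 0.115 on CDKL1 shRNA arrays and 1.40 ± 0.0133 on control shRNA arrays (SD, n = 3 each; exact two-sided permutation p = 0.1). That of GAPDH was also higher, at 0.275 ± 0.0262 on CDKL1 shRNA arrays and 0.203 ± 0.018 on control shRNA arrays (SD, n = 3 each; exact two-sided permutation p = 0.1), and neither measure overlapped between the groups. In a fit with the ACTB difference as a covariate 1.21% of all genes were called, and of the members NEURL1B alone. Because the ACTB measure did not overlap between the groups, RNA quality and the hairpin cannot be told apart in this fit, for any gene. Of 10 colorectal epithelial markers, EPCAM (13.53 and 13.52) and CDX2 (10.72 and 10.67, CDKL1 shRNA first) were bright, and KRT20 rose by 0.52 and VIL1 fell by 0.57 on the log2 scale (limma, adjusted p = 0.000746 and adjusted p = 0.019). The other 8 did not pass, although 6 of the 10 had an unadjusted p under 0.05 and the groups did not overlap for 6. Among those 6, CDH1 (-0.12), KRT8 (-0.15) and KRT18 (-0.13) had lower means and CDH17 (0.15) a higher mean in CDKL1 shRNA cells (limma, adjusted p = 0.0502 to 0.116). LGALS4 was dim, at 5.38 in CDKL1 shRNA cells and 5.36 in control shRNA cells. So were VIL1, at 5.29 and 5.85, and GPA33, at 6.12 and 6.18 (CDKL1 shRNA first). The endothelial marker VWF was brighter than GPA33, at 6.64 and 6.75. Of 16 measured markers of fibroblasts, leukocytes and endothelium, limma called 0, and 0 had an unadjusted p under 0.05. For comparison, 5407 of all 18132 genes had an unadjusted p under 0.05 (limma), and the groups did not overlap for 35.7% of all genes.

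NEURL1B, a RING-type ubiquitin ligase of the Neuralized family, had log2 levels of 6.18, 6.35 and 6.28 on the CDKL1 shRNA arrays, against 8.24, 8.28 and 8.29 on the control shRNA arrays. All 3 CDKL1 shRNA arrays lay far below all 3 control shRNA arrays, and the groups did not overlap. The means were 6.27 ± 0.09 and 8.27 ± 0.03 (SD, n = 3 each, CDKL1 shRNA first), a log2 difference of -2.0 (SE 0.05, 95% interval from -2.13 to -1.88), which means that the signal fell by 75.1%. Among all 18132 genes this was the fall of rank 2, and only 2 genes fell by 2 or more on the log2 scale while 3 rose by as much. With 1 array left out the difference was -2.04 to -1.96. With the ACTB measure of RNA quality as a covariate it was -2.13 (SE 0.09), though that measure itself did not overlap between the groups. A single probe set reads this gene, so no other probe set bears on the value. Background controls with 18 and 19 bases of G or C lay at 5.95 and 6.33, so the CDKL1 shRNA level of 6.27 may be near background. These are bulk samples, in which fewer cells with a transcript and less of it per cell cannot be told apart.

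**Figure D2:**
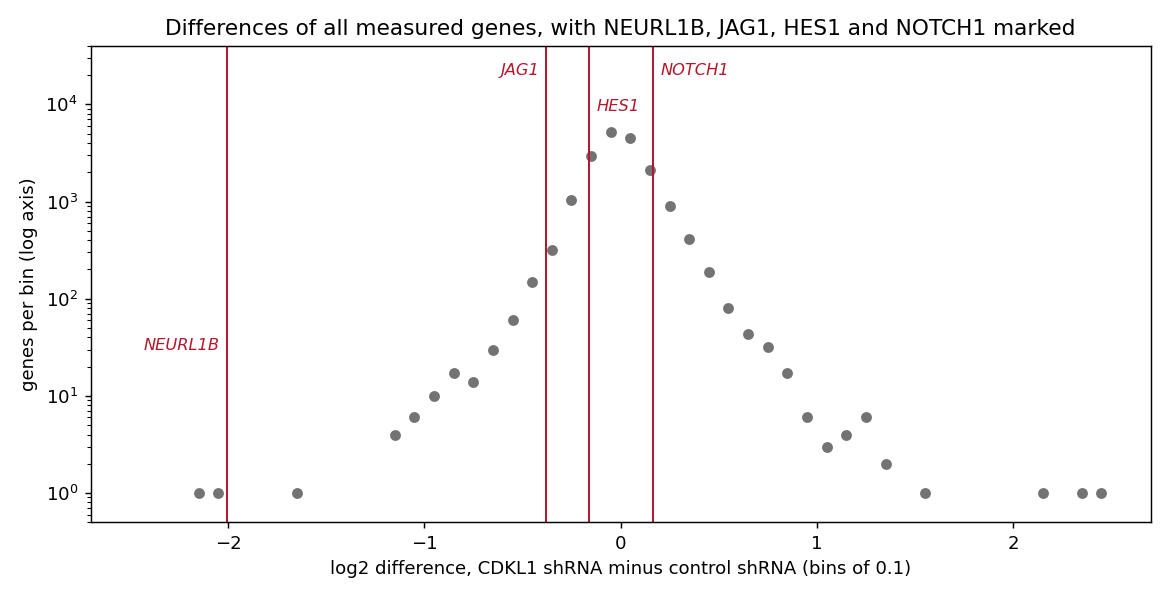
Number of genes per bin of 0.1 of the log2 difference (CDKL1 shRNA minus control shRNA), as points on a log axis, for all 18132 genes; vertical lines mark NEURL1B, JAG1, HES1 and NOTCH1. NEURL1B, at -2.0, stands outside the bulk of genes, whereas JAG1 (-0.38), HES1 (-0.16) and NOTCH1 (0.17) lie within it.

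The other ligand ubiquitin ligases were not called. NEURL1B was chosen for its large difference, so nothing is read from the gap between it and them. NEURL1, a relative of NEURL1B, had log2 levels of 6.77, 6.91 and 6.83 on CDKL1 shRNA arrays, against 6.95, 6.82 and 6.80 on control shRNA arrays, and the groups overlapped. Its difference was -0.02 with an interval from -0.16 to 0.12. All 4 NEURL1 probe sets had a negative sign, from -0.14 to -0.02, and their arrays overlapped. MIB1, the ligase that most mammalian Notch ligands depend on, stood at 9.17, 9.23 and 9.28 in CDKL1 shRNA cells, against 9.23, 9.25 and 9.34 in control shRNA cells. Its difference was -0.05 (interval from -0.17 to 0.07), and its 5 probe sets ranged from -0.16 to 0.08, 4 of them negative; on 2 of these the groups did not overlap. MIB2, a relative of MIB1 that is not a member, had a difference of 0.18 (limma, adjusted p = 0.203). The Neuralized-domain genes NEURL2 (0.05), NEURL3 (0.13) and NEURL4 (0.10) also did not pass, with adjusted p of 0.294 to 0.72 (limma), and 0 of the 3 had an unadjusted p under 0.05.

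Among the ligands, JAG1 was lower, and DLL1 and JAG2 were not called. JAG1, the Jagged ligand best known from the bile ducts and from colorectal tumours, had log2 levels of 10.03, 10.04 and 10.07 on CDKL1 shRNA arrays, against 10.34, 10.51 and 10.43 on control shRNA arrays. The 3 CDKL1 shRNA arrays lay close together and below all the control arrays. The difference was -0.38 (SE 0.06, interval from -0.51 to -0.25), and the signal fell by 23.0%, at rank 345 from the lowest of 18132 genes. All 6 JAG1 probe sets had a negative sign, from -0.44 to -0.05; 2 were called lower in the fit over all probe sets, and on 3 the groups did not overlap. That fit called 4 of the members' 35 probe sets, all lower, beside 12.6% of all probe sets in either direction and 5.24% lower, and nothing is read from this either. The groups did not overlap on 11 of these 35 probe sets, and by brightest probe set they did not overlap for 35.7% of all genes. The share over all probe sets was not counted, so nothing is read from such counts for any member. The mean of the 6 probe sets gave -0.24, and with the ACTB covariate the difference was -0.38 with an SE of 0.11 and was not called.

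DLL1, the Delta-like ligand of intestinal secretory progenitors, had levels of 6.92, 7.08 and 6.89 in CDKL1 shRNA cells, against 7.07, 6.87 and 6.83 in control shRNA cells, with a difference of 0.04 (interval from -0.15 to 0.23) and differences of 0.00 to 0.06 over its 3 probe sets. JAG2, the second Jagged ligand, stood at 8.72, 8.80 and 8.81, against 8.84, 8.77 and 8.81 in control shRNA cells, a difference of -0.03 (interval from -0.14 to 0.08) from its 1 probe set. The groups overlapped for both genes. Of the ligand genes outside the members, DLL4, known from blood vessel sprouting and from intestinal crypts, had levels of 6.08, 6.04 and 5.97 on CDKL1 shRNA arrays, against 6.36, 6.36 and 6.16 on control shRNA arrays. It fell by 0.26 (SE 0.07; limma, adjusted p = 0.0379), but it was called in only 1 of the 6 fits that left out an array, with adjusted p up to 0.123, and not with the mean of its 2 probe sets (limma, adjusted p = 0.0931). DLL3 (0.00) and the non-canonical ligand genes DLK1 (0.19) and DLK2 (0.00) did not pass (limma, adjusted p = 0.142 to 0.997).

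The receptor genes moved little, and the probe sets of NOTCH1 disagreed. NOTCH1 had log2 levels of 6.76, 6.81 and 6.76 on CDKL1 shRNA arrays, against 6.64, 6.61 and 6.58 on control shRNA arrays, by its brightest probe set. The CDKL1 shRNA arrays were all higher, by 0.17 on average (SE 0.04, interval from 0.07 to 0.27), or 12.2% more signal. The other NOTCH1 probe sets gave -0.01 and -0.12, and on the second of these the 3 CDKL1 shRNA arrays were all lower than the control arrays. The mean of the 3 probe sets was 0.01, and none of them was called in the fit over all probe sets, so a direction for NOTCH1 rests on the choice of probe set.

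NOTCH2, one of the receptors of the intestinal crypt, had levels of 9.34, 9.42 and 9.42 in CDKL1 shRNA cells, against 9.45, 9.36 and 9.43 in control shRNA cells. The difference was -0.02 (interval from -0.13 to 0.09), and the 5 probe sets of this gene lay between -0.02 and 0.03, the narrowest range of any member with at least 2 probe sets. NOTCH3, a receptor known from vascular smooth muscle, stood at 7.19, 7.26 and 7.16, against 7.11, 7.23 and 7.26 in control shRNA cells, with equal means of 7.20 and an interval from -0.13 to 0.13. Its second probe set gave -0.10. The arrays overlapped for both receptors, and NOTCH4, the receptor outside the members, had a difference of 0.00 (limma, adjusted p = 0.976).

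**Figure D3:**
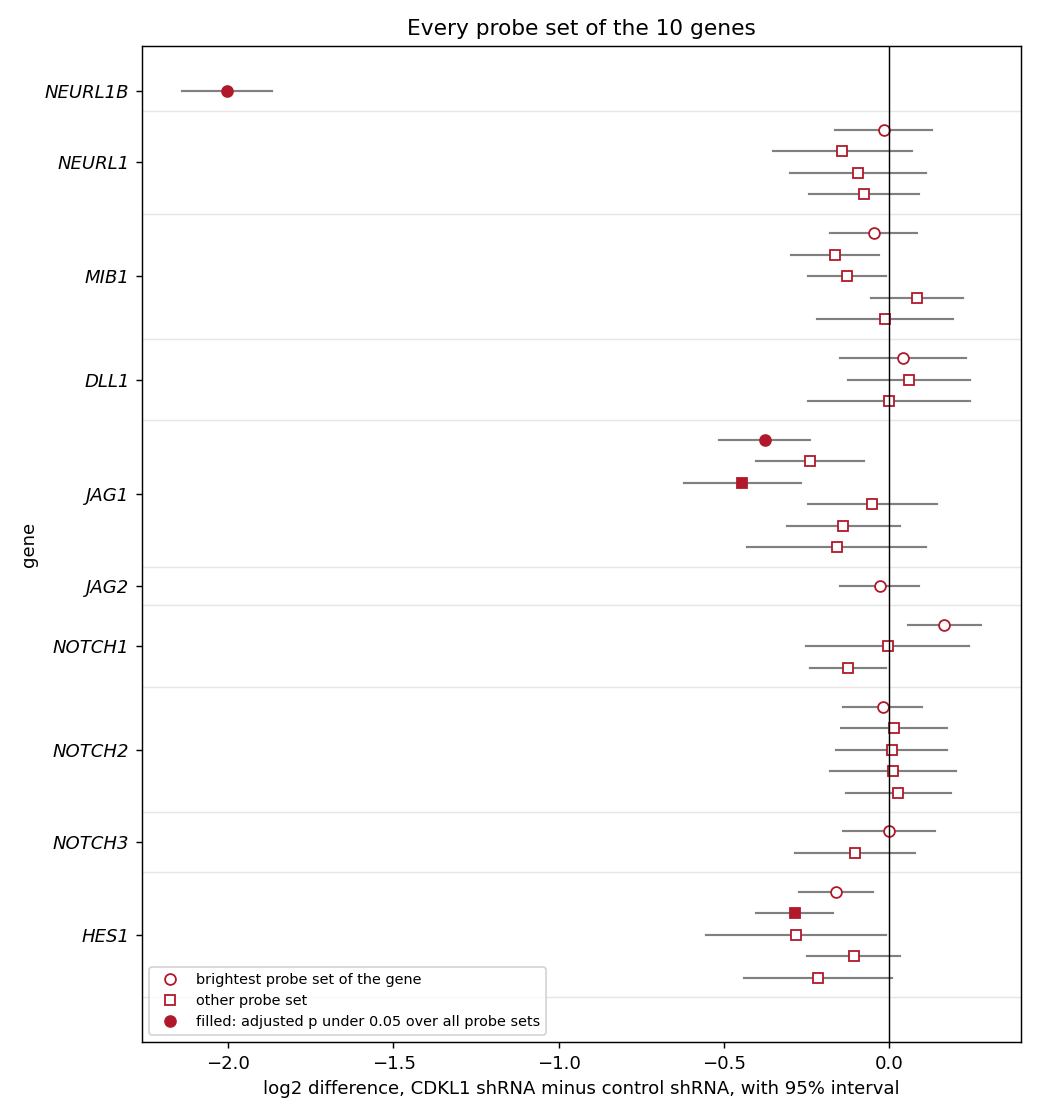
Log2 difference (CDKL1 shRNA minus control shRNA) with its 95% interval for each of the 35 probe sets of the 10 genes, brightest probe set of a gene on top as a circle; filled symbols were called in the fit over all probe sets. The 6 probe sets of JAG1 and the 5 of HES1 lie left of 0, those of NOTCH1 lie on both sides, and that of NEURL1B lies alone near -2.0.

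HES1, a basic helix-loop-helix repressor and the main Notch target of the intestinal epithelium, was slightly lower. Its log2 levels were 9.27, 9.21 and 9.26 on CDKL1 shRNA arrays, against 9.37, 9.43 and 9.41 on control shRNA arrays, and the groups did not overlap. The brightest probe set gave -0.16 (SE 0.04, interval from -0.26 to -0.06), and the signal fell by 10.5%. The next brightest probe set had levels of 9.09 ± 0.04 and 9.37 ± 0.04 (SD, n = 3 each, CDKL1 shRNA first), a difference of -0.29, and was the only HES1 probe set called over all probe sets. All 5 probe sets were negative, from -0.29 to -0.11, with a median of -0.22, and on 3 of them the groups did not overlap. The call of the brightest probe set was lost after subtraction of each array's median, at -0.15, and with the ACTB covariate, at -0.11.

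Of the 7 measured HES and HEY targets and feedback genes outside the members, HES4 fell and 6 did not pass. By limma 2 of the 7 had an unadjusted p under 0.05, beside 5407 of all 18132 genes, and the median log2 difference was -0.07. HES4, a relative of HES1 read by 1 probe set, had levels of 9.27, 9.33 and 9.21 on CDKL1 shRNA arrays, against 9.63, 9.46 and 9.5 on control shRNA arrays. It fell by 0.26 (SE 0.06; limma, adjusted p = 0.0255), and kept its call in 2 of the 6 fits without an array, where adjusted p reached 0.091. NRARP, which encodes a feedback inhibitor of the Notch complex, had a difference of -0.18 and HES7 of -0.14, both with groups that did not overlap, yet neither passed (limma, adjusted p = 0.186 and adjusted p = 0.0975). The NRARP value rested largely on control shRNA replicate 1, without which it was -0.09, and the mean of its 2 probe sets was -0.10. HES7 was called only when genes brighter than the median gene alone were tested (limma, adjusted p = 0.0229). HEYL (-0.01) and HES5 (0.08) did not pass either, and HEY1 and HEY2, with group means of 4.05 to 4.16, lay within the range of the background controls. Among the secretory lineage genes ATOH1, NEUROG3, GFI1 and SPDEF limma gave 0 calls, and 0 had an unadjusted p under 0.05. Their differences ran from -0.11 to 0.11. ATOH1, at 4.10 in CDKL1 shRNA cells and 3.99 in control shRNA cells, and NEUROG3, at 4.19 and 4.21, also lay within the range of the background controls, so a small change there may not be detectable.

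In all, 69 other genes of the pathway were measured of 73 listed, and 12 were called, 5 higher and 7 lower. This is 17.4%, beside 16.8% of all genes, and their median difference was 0.00, beside -0.01 for all genes. An unadjusted p under 0.05 (limma) was found for 28 of the 69, beside 5407 of all 18132 genes. The groups did not overlap for 36 of the 69, beside 35.7% of all genes. With 1 array left out 2 to 3 were called higher and 1 to 4 lower, and with the ACTB covariate 1 was called. The lists were written from textbook knowledge of the pathway with earlier results of these arrays known, so nothing is read from their counts.

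Receptor cleavage held the largest difference among these 69 genes. PSENEN, which encodes the PEN-2 subunit that activates gamma-secretase, had levels of 9.12, 9.22 and 9.17 on CDKL1 shRNA arrays, against 9.65, 9.67 and 9.64 on control shRNA arrays. It fell by 0.48 (SE 0.05, interval from -0.59 to -0.37; limma, adjusted p = 0.000894), the signal fell by 28.3%, and it was called in all 14 alternatives, with adjusted p up to 0.0354. A single probe set reads PSENEN, so the alternative with the mean of all probe sets repeats its main difference. The other 7 measured genes of this list, among them the ADAM proteases and the gamma-secretase subunits NCSTN, APH1A and APH1B, did not pass. By limma 3 of the 8 had an unadjusted p under 0.05, beside 5407 of all 18132 genes.

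Genes of receptor glycosylation, which tunes how Notch receptors answer each ligand family, moved in both directions: 2 of 11 rose, 3 fell and 6 did not pass, with a median of -0.05. The called genes are 45.5% of this list, beside 16.8% of all genes. By limma 8 of the 11 had an unadjusted p under 0.05, beside 5407 of all 18132 genes. The groups did not overlap for 9 of the 11, beside 35.7% of all genes. Because the list was written with earlier results known, nothing is read from these counts. EOGT, an O-GlcNAc transferase of the receptor's EGF repeats, had levels of 8.62, 8.6 and 8.59 in CDKL1 shRNA cells, against 8.30, 8.13 and 8.14 in control shRNA cells, and rose by 0.41 (SE 0.06; limma, adjusted p = 0.00396). It was called in each fit without an array, but not with the ACTB covariate (limma, adjusted p = 0.132). The mean of its 2 probe sets gave 0.24 and was called (limma, adjusted p = 0.0238). The O-glucosyltransferase gene POGLUT3 rose by 0.24 (limma, adjusted p = 0.017), but was called in 3 of the 6 fits without an array (limma, adjusted p up to 0.0593) and not with the ACTB covariate (limma, adjusted p = 0.264). The xylosyltransferase genes XXYLT1 and GXYLT2 fell by 0.21 and 0.16 (limma, adjusted p = 0.0322 and adjusted p = 0.0368). LFNG, a Fringe enzyme gene that was named after its value was seen, fell by 0.21 (limma, adjusted p = 0.0393). XXYLT1 was called in 1 of the 6 fits without an array and GXYLT2 in 0. POGLUT3 and GXYLT2 were each read by 1 probe set.

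Receptor turnover gave 2 rises and 0 falls among 11 genes, with a median of -0.04, and 3 at an unadjusted p under 0.05 by limma. The HECT ubiquitin ligase genes ITCH, whose product marks Notch for degradation, and NEDD4, of the same enzyme family, rose by 0.28 and 0.27 (limma, adjusted p = 0.0129 and adjusted p = 0.0195). ITCH lost its call without CDKL1 shRNA replicate 3 (limma, adjusted p = 0.0545) and with the mean of its 4 probe sets (0.11; limma, adjusted p = 0.108), and NEDD4 was called in 2 of 6 fits without an array. In the nuclear activator complex 7 of 9 genes did not pass, and the median was 0.06. By limma 5 of the 9 had an unadjusted p under 0.05, beside 5407 of all 18132 genes. The groups did not overlap for 7 of the 9, beside 35.7% of all genes. MAML1 rose by 0.19 and MAML3 fell by 0.23 (limma, adjusted p = 0.0423 and adjusted p = 0.0474). Neither call was stable, since MAML1 was called in 0 and MAML3 in 1 of the 6 fits without an array. Among 7 nuclear repressor genes limma called 0, with 4 at an unadjusted p under 0.05, and among the 3 epsin genes of ligand endocytosis it called 0, with 1 at an unadjusted p under 0.05.

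**Figure D4:**
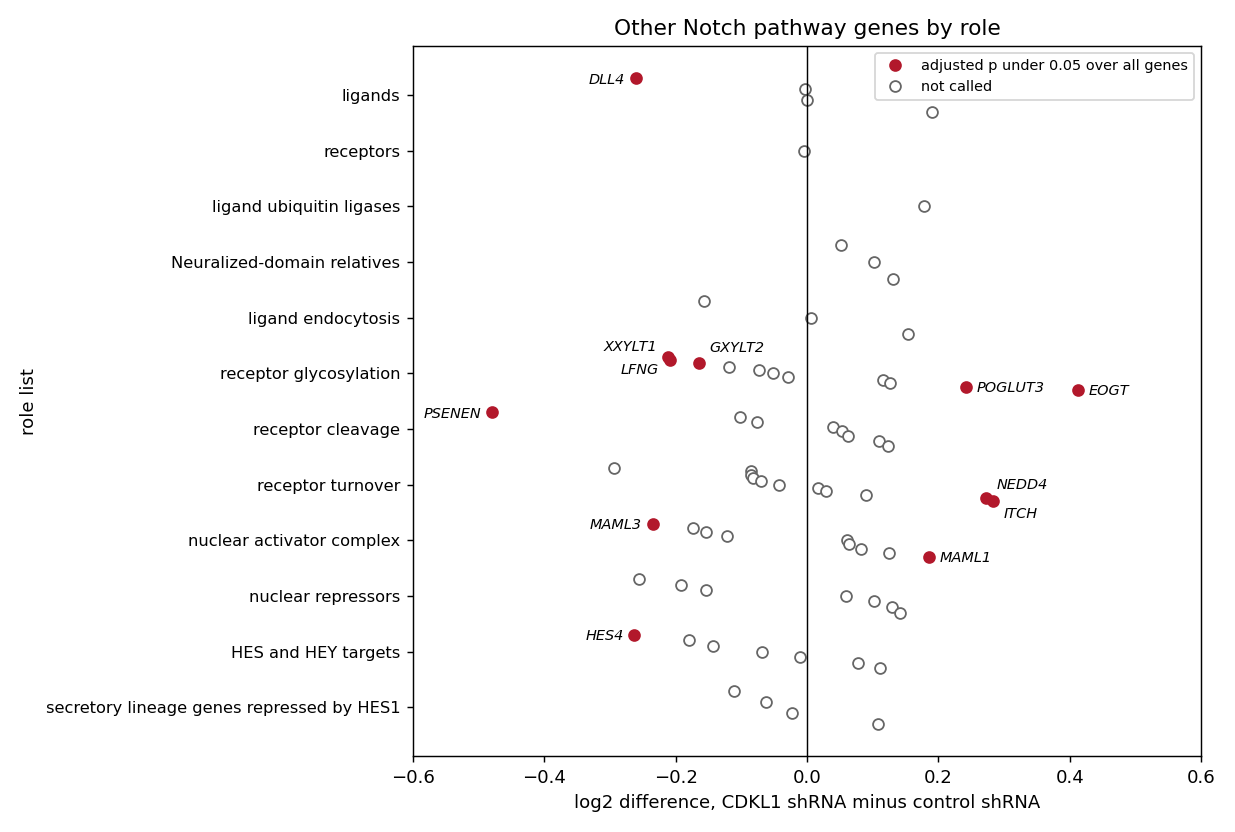
Log2 difference (CDKL1 shRNA minus control shRNA) of the 69 Notch pathway genes outside the 10 members, 1 point a gene, in rows by role; filled points passed an adjusted p of 0.05 over all genes and are named. Filled points lie on both sides of 0, from -0.48 for PSENEN to 0.41 for EOGT.

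NEURL1B's profile over the 6 arrays was most like those of genes outside the pathway. By the root mean square distance between log2 profiles, each centred on its own mean, the nearest of all genes were the uracil-DNA glycosylase gene UNG (0.189), the linker histone gene H1-4 (0.218) and the transcription factor gene TEF (0.407). Their log2 differences were -1.66, -2.17 and -1.20, so the measure mainly finds the other large falls. Of the members, JAG1 was nearest, at 0.816, and NOTCH1 farthest, at 1.09. This likeness is a description over 6 arrays in 2 groups.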

How the data were processed

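Total RNA was prepared with TRIzol and labelled as biotinylated cRNA, per the labels' protocols, and each of 6 samples was hybridised to an Affymetrix array. The deposited table holds log2 expression values that the authors made with RMA, per the submitters' processing notes; no version, setting or genome build is stated in the sources used. For dim probe sets, RMA values understate differences. The platform annotation supplied gene symbols, and each gene was read from its brightest probe set (by the mean of all 6 arrays) among those with a single symbol. 4 listed genes and 1 marker were not analysed here. 0 columns were left unused.

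Groups were compared by two-sided tests in limma 3.58.1 under R 4.3.3, using lmFit and eBayes with group as the only term, with p adjusted over 18132 genes, or 49293 probe sets, by Benjamini-Hochberg at 0.05; the script was tested on simulated data. The labels call the samples independent without naming separate cultures or infections; the spread that p-values rest on may thus be technical, and the number of arrays limits the precision. Single values had exact permutation tests. Members and lists were chosen with earlier results of these data known. Named genes were the members, CDKL1, all ligand, receptor, ligase, Neuralized-domain and HES or HEY genes, up to 4 called genes with the smallest adjusted p of each other list, and the 3 genes nearest to NEURL1B in profile. Alternatives were a replicate block, leaving out arrays, other normalisation, centring, probe set choice, filters, prior and an ACTB covariate. Promoter windows came from RefSeq. Figures were made with Python 3.11.15 and matplotlib 3.10.9.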

Additional observations from a re-analysis of the deposited data

How the results depend on the processing

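NEURL1B was called lower in all 13 alternatives that tested it, with a log2 difference of -2.13 to -1.96. JAG1 was called in 13 of 14, with the ACTB covariate as the exception, while HES1 was called in 5 of 14 and NOTCH1 in 3 of 13. All alternatives use the arrays on which the members were chosen, so these calls are a description and no independent support. The replicate number did not pair the arrays: deviations of same-numbered arrays correlated at -0.0289, -0.1213 and 0.0699. With the replicate block 1024 genes were called higher and 779 lower, against 1627 and 1413 without it. In that fit 0 members were called higher (NOTCH1 stayed at 0.17, SE 0.05), HES1 was no longer called lower, and NEURL1B stayed at -2.0. Of the other pathway genes 4 were higher and 2 lower, beside 9.94% of all genes called in either direction. With 1 array left out, in limma fits with fewer arrays, 895 to 1314 genes were higher and 738 to 1085 lower, 0 members were higher and 2 lower, 2 to 3 other pathway genes were higher and 1 to 4 lower, and CDKL1 ran from -0.29 to -0.12. With the ACTB covariate 109 genes were higher and 110 lower, 0 members higher and 1 lower, 0 other pathway genes higher (4 at an unadjusted p under 0.05) and 1 lower, and 1 probe set of the members was called. The filter for genes brighter than the median gene left 5 members to test, without NEURL1B and NOTCH1, and 0 members were higher. In that fit 10 of 48 other pathway genes were higher and 12 lower, beside 44% of all 9066 genes called in either direction. Above the highest background control 534 genes were higher and 409 lower, no member was left to test, and 2 of 4 other pathway genes were higher and 0 lower. With an intensity trend and a robust prior 8 of 69 other pathway genes were higher and 10 lower, beside 23.2% of all genes called. In that fit 0 members were higher and 3 lower. Over all probe sets the same setting called 7 probe sets of the members, as many as after a further quantile normalisation. The mean of all probe sets gave 0 members higher. The filter at the background control with 16 G or C bases was chosen after seeing the data and called the same 4 members. The cause of lost or gained calls was not tested. Some settings also leave fewer arrays or genes. No array scanner files were used, so signal over background is known only from the control probe sets. These were brighter with more G and C: controls with 17 and 21 such bases lay at 5.43 and 7.15. The levels of DLL4, DLL1 and NOTCH1 fall between these values, so they too may be near background.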

Other observations

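Besides its own 5 probe sets, NOTCH2 has 4 probe sets that also match NOTCH2NL genes and NBPF genes, and these could not be given to 1 gene. The 2 brightest of them had levels of 9.07 ± 0.0194 in CDKL1 shRNA cells and 9.05 ± 0.0333 in control shRNA cells, and of 8.53 ± 0.0449 and 8.54 ± 0.047 (SD, n = 3 each, CDKL1 shRNA first). The log2 differences of all 4 ran from -0.15 to 0.21, and limma called 0 of them over all probe sets (adjusted p = 0.276 to 0.957).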
